A study of Homo sapiens with 12 samples.

Results

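Protein-protected RNA was described for 8 genes that encode RNA-binding proteins of the nucleus: HNRNPA1, HNRNPA2B1, HNRNPC, HNRNPK, HNRNPU, HNRNPM, HNRNPH1 and PTBP1. The genes were set by name and by their hg19 spans, without a cut-off on their values. Earlier results of these data were known when they were chosen. A protected site belonged to a gene when its midpoint lay inside the span on the gene's strand. Such sites numbered 1799 of the 513381 sites in 6 replicate lists. The spans add up to 172342 bp, from 4543 bp for HNRNPA1 to 60343 bp for HNRNPC.

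The sites came from protein interaction profile sequencing of the established line HEK293T, of human embryonic kidney origin, after cross-linking with formaldehyde. The 12 libraries formed 4 groups of 3 replicates: ssRNase footprints, ssRNase digestion controls, dsRNase footprints and dsRNase digestion controls. The ssRNase was RNase ONE, which cuts single-stranded RNA, and the dsRNase was RNase V1, which cuts paired RNA. In footprints the nuclease acted on lysate with protein still bound, and in digestion controls protein had first been removed with SDS and proteinase K. Each replicate list holds the sites that the authors called in a footprint library against its control. A list therefore carries no separate control value, and it is the replicate in every comparison here. The labels do not state whether the replicates are separate cultures. The p-values thus reflect the variation between these libraries, part or all of which may be technical.

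Heterogeneous nuclear ribonucleoproteins (hnRNPs) coat nascent transcripts, and they act in splicing, export, stability and translation of RNA. Several are known to bind their own pre-mRNA and so to limit their own level, in part through exons or splice choices that expose the transcript to nonsense-mediated decay. PTBP1, the polypyrimidine tract-binding protein, is a splicing repressor with such a self-regulating exon. The values below concern protein on the RNA of these genes, and the assay does not say which protein was bound.

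Over the whole genome 209922, 57481 and 172079 sites were listed with ssRNase, against 23925, 28413 and 21561 with dsRNase. The second ssRNase list was thus much shorter than the other two of its nuclease. Read depth is unknown, because the lists hold positions and scores without read counts. The minus strand held 54.8% to 60.9% of the site bases in ssRNase lists and 64.5% to 78.5% in dsRNase lists. This bears on the genes, since HNRNPA2B1, HNRNPC, HNRNPK, HNRNPU and HNRNPH1 lie on the minus strand and HNRNPA1, HNRNPM and PTBP1 on the plus strand.

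All 8 genes held sites in all 6 lists. Together they held 573, 187 and 432 sites in the ssRNase lists, against 204, 223 and 180 in the dsRNase lists. These covered 33348, 9325 and 20878 bases with ssRNase and 6957, 7702 and 7210 bases with dsRNase, a ratio of means of 2.91. The ssRNase lists all had more protected bases in these genes than any dsRNase list. The two-sided exact permutation p was 0.1, which is the lowest value that 3 lists against 3 can reach. As a share of each list, the order was the other way. The 8 genes took 0.327%, 0.320% and 0.258% of all site bases in the ssRNase lists, against 0.845%, 0.787% and 0.902% in the dsRNase lists. The mean share was 0.302% ± 0.0382 with ssRNase and 0.845% ± 0.0579 with dsRNase (SD, n = 3 lists each, two-sided exact permutation p = 0.1), which is 2.80 times the ssRNase share. Both statements hold at once because the ssRNase lists are longer: with dsRNase fewer bases of these genes were listed, but they made up more of what was listed.

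Nearly all protected RNA in the spans had the orientation of the gene. Sites on the opposite strand numbered 3, 0 and 4 in the ssRNase lists and 0 in each dsRNase list, and they lay in HNRNPA1 and HNRNPU. The sense strand held 99.5% ± 0.543 of site bases within the spans with ssRNase and 100% in each dsRNase list (SD, n = 3, two-sided exact permutation p = 0.4).

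For single genes, shares are given in ppm, the bases of its sites per 1000000 bases in all sites of the list, and differences as log2(share + 20) with ssRNase minus dsRNase. Each gene was tested with limma together with 31432 stranded windows of 10000 bp, and p-values were adjusted over all of them. Of the 8 genes 6 passed an adjusted p of 0.05, all with a greater share in dsRNase lists: HNRNPA1, HNRNPA2B1, HNRNPC, HNRNPK, HNRNPU and HNRNPH1. Of the windows 7.04% passed in that direction and 26.6% in the other. The median difference was -1.72 over the 8 genes and 0.43 over all windows tested. Windows rich in sites leaned to dsRNase too. Among the 165 windows with a mean share at least that of the lowest gene, 65.5% passed in that direction and the median difference was -1.69. Those 165 windows were picked with the values that were tested, and they include windows of the genes.

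HNRNPA1 and HNRNPA2B1 encode the A/B-type proteins, which bind AG-rich RNA. HNRNPA1 is a classical splicing repressor, and HNRNPA2B1 is also known for sorting and transport of RNA. The share of HNRNPA1 was 173, 73.1 and 134 ppm in the ssRNase lists and 383, 619 and 559 in the dsRNase lists. All dsRNase values lay above all ssRNase values, and the log2 difference was -1.92 ± 0.34 (SE, limma adjusted p = 0.0125). HNRNPA1 rested on few sites: 28, 5 and 22 with ssRNase and 10, 15 and 11 with dsRNase. The annotation lists 74 pseudogenes under the HNRNPA1 symbol, and how multi-mapped reads were treated is unknown, so values of HNRNPA1 are uncertain. HNRNPA2B1, with no pseudogene under its symbol, had shares of 477, 513 and 350 ppm with ssRNase and 1683, 1511 and 1742 with dsRNase. The groups did not overlap, and the difference was -1.85 ± 0.20 (SE, limma adjusted p = 0.00507).

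HNRNPC encodes a tetramer-forming protein that binds uridine tracts and keeps cryptic exons, such as those from Alu elements, out of mRNA. Its shares were 797, 848 and 739 ppm with ssRNase and 1675, 1536 and 1438 with dsRNase. The values did not overlap, and the log2 difference of -0.95 ± 0.16 (SE, limma adjusted p = 0.0117) was the smallest in size of the 6 genes that passed. HNRNPC was also the gene whose call depended most on scaling. The limma adjusted p was 0.0651 when each list was scaled within its strand and 0.816 when lists were scaled by their median, where the difference was -0.07, and it ranged from 0.00499 to 0.816 over the alternatives.

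HNRNPK encodes the KH-domain protein that binds cytosine-rich RNA and DNA. As a share of the whole list it showed the largest difference of the 8 genes, while with lists scaled within strand HNRNPA1 was larger, at -2.66 against -2.32 for HNRNPK. The HNRNPK shares were 199, 161 and 114 ppm with ssRNase and 997, 913 and 1145 with dsRNase, a mean 6.44 times as high with dsRNase. The log2 difference was -2.57 ± 0.24 (SE, limma adjusted p = 0.00458). In bases protected, HNRNPK had the smallest ratio of ssRNase to dsRNase, 1.30: 2028, 469 and 926 with ssRNase against 821, 894 and 915 with dsRNase, with overlapping groups (two-sided exact permutation p = 0.7).

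HNRNPU encodes scaffold attachment factor A, a chromatin-associated protein that binds RNA and DNA. Shares were 463, 460 and 385 ppm with ssRNase and 1631, 1386 and 2082 with dsRNase, and did not overlap (log2 difference -1.90 ± 0.21, SE, limma adjusted p = 0.00517). HNRNPH1 encodes a protein that binds G-rich RNA and regulates splicing and polyadenylation. Shares of HNRNPH1 were 477, 600 and 328 ppm with ssRNase and 1443, 1193 and 1607 with dsRNase, also without overlap (difference -1.58 ± 0.27, SE, limma adjusted p = 0.0115). With lists scaled by their median, the difference for HNRNPH1 was -0.72 with an adjusted p of 0.0675, within a range of 0.00266 to 0.395 over all alternatives run.

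HNRNPM, a splicing regulator that binds GU-rich RNA, and PTBP1 did not follow the other 6 genes. HNRNPM had shares of 384, 235 and 276 ppm with ssRNase and 413, 259 and 149 with dsRNase. PTBP1 had 302, 309 and 250 ppm with ssRNase and 225, 449 and 302 with dsRNase. In both genes the groups overlapped, with differences of 0.19 ± 0.39 for HNRNPM (SE, limma adjusted p = 0.788) and -0.12 ± 0.28 for PTBP1 (SE, limma adjusted p = 0.816). These p-values do not show that the nucleases were equal in either gene. Their dsRNase sites were few: 9, 9 and 2 in HNRNPM and 6, 11 and 7 in PTBP1. In bases protected the same genes had the largest ratios of ssRNase to dsRNase, at 9.59 for HNRNPM and 6.94 for PTBP1, with no overlap between groups (two-sided exact permutation p = 0.1 each, 0.16 after Benjamini-Hochberg adjustment over the 8 genes). The lack of overlap was not particular to them. In bases it was seen in 5 of the 8 genes, also in HNRNPA2B1, HNRNPC and HNRNPH1. It was not counted over windows, and the ssRNase lists are longer throughout. No test compared HNRNPM and PTBP1 with the other 6.

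**Figure D1:**
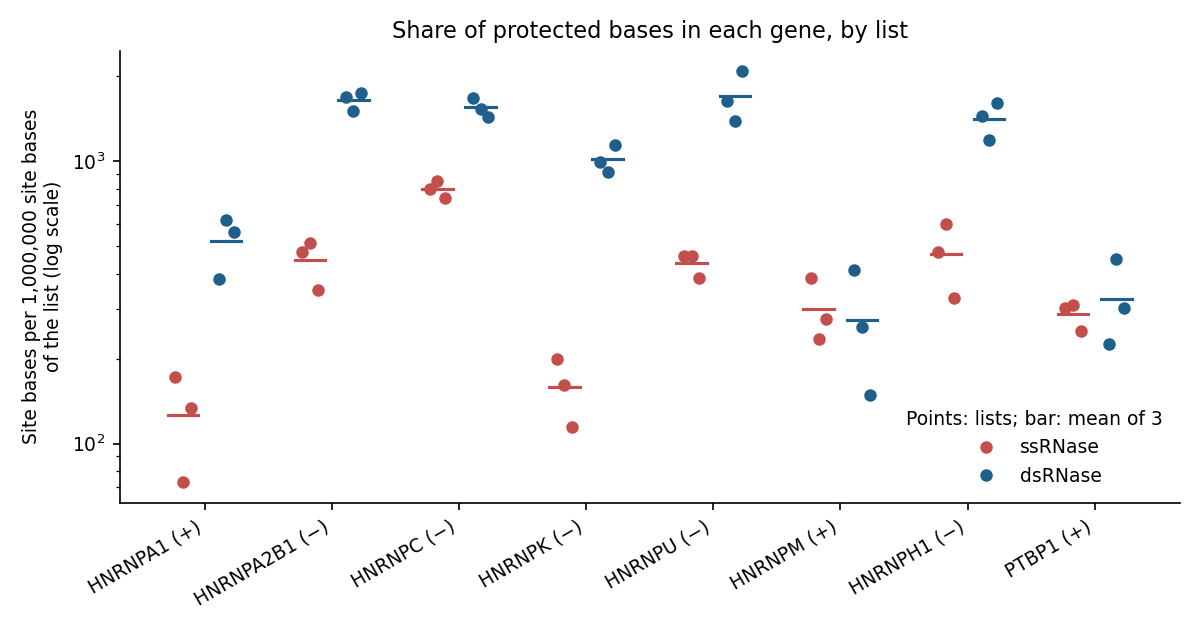
Share of each gene in ppm of the site bases, on a log scale, for the 3 ssRNase lists (left of each pair) and the 3 dsRNase lists (right), with a bar at the mean and the strand beside the gene name. The dsRNase points lie above the ssRNase points in 6 genes and overlap them in HNRNPM and PTBP1.

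All 5 minus-strand genes passed and 1 of the 3 plus-strand genes did. The part of the strand lean of the lists in this was not tested. When each list was scaled within its strand, 6 of the 8 genes again passed with a greater dsRNase share, against 6.54% of windows, while 32.2% of windows passed in the other direction. Among the 165 windows with a mean share at least that of the lowest gene, 64.8% passed with a greater dsRNase share under this scaling. PTBP1 then passed (difference -0.76, limma adjusted p = 0.0436, with a range of 0.0436 to 1.00 over the alternatives) and HNRNPC did not. HNRNPM turned to -0.42 (limma adjusted p = 0.583). Values of the 6 genes first named did not overlap between nucleases, as was the case, in that direction, for 9.58% of windows. When lists were scaled by their median, which moved the median difference over all windows to 0.71 and over the 8 genes to -0.85, 4 genes passed with a greater dsRNase share: HNRNPA1, HNRNPA2B1, HNRNPK and HNRNPU. Of windows, 3.6% then passed in that direction and 37.2% in the other, and HNRNPM stood at 1.02 (limma adjusted p = 0.0831, with a range of 0.0831 to 1.00 over the alternatives). The differences of the 6 genes first named kept their direction when an ssRNase list was left out, but the calls depended on which windows were tested beside the genes. Without ssRNase replicate 1, 2 or 3 the difference was -1.90, -1.96 and -1.69 for HNRNPA2B1 and -1.94, -1.94 and -1.82 for HNRNPU. With windows required to hold a site in 3 of the remaining lists, 1, 0 and 0 of the genes passed. With the windows of the 6-list fit kept, an alternative chosen after seeing the data, 6 genes passed each time.

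Because the genes differ in length, their levels were compared as the share of the span that was protected. The order was not corrected for introns, which the genes hold in unlike measure. Annotated exons (GENCODE 29, build GRCh38) add up to 7309 bases in HNRNPC, with a span of 60343 bp. In HNRNPA1 they add up to 5093 bases, with a span of 4543 bp. HNRNPH1, HNRNPA2B1, HNRNPA1 and HNRNPU were covered most densely with ssRNase, at 29.4% ± 15.2, 28.2% ± 15.6, 22.4% ± 17.1 and 21.5% ± 11.9 of the span (SD, n = 3). PTBP1 followed at 13.4% ± 7.31, then HNRNPC at 9.16% ± 4.73, HNRNPK at 9.08% ± 6.37 and HNRNPM at 5.14% ± 3.65. The ssRNase lists differed widely in all genes together, so neighbours in this order were set side by side within each list. HNRNPA2B1 exceeded HNRNPA1, HNRNPU exceeded PTBP1, PTBP1 exceeded HNRNPC and HNRNPK exceeded HNRNPM in all 3 ssRNase lists. HNRNPU, for example, was covered to 33.1%, 9.42% and 21.9% and PTBP1 to 20.6%, 6.03% and 13.6%. The order of HNRNPH1 and HNRNPA2B1, of HNRNPA1 and HNRNPU, and of HNRNPC and HNRNPK differed between the ssRNase lists. HNRNPA1 also fell below PTBP1 in ssRNase replicate 2, at 4.69% against 6.03%. With dsRNase the order was HNRNPA2B1 at 13.1% ± 0.479, HNRNPH1 at 11.6% ± 0.591, HNRNPU at 10.2% ± 1.27, HNRNPA1 at 9.94% ± 3.06 and HNRNPK at 6.97% ± 0.392. HNRNPC at 2.23% ± 0.298, PTBP1 at 1.93% ± 0.897 and HNRNPM at 0.536% ± 0.251 of the span came last. The dsRNase lists differed less among themselves, but the order of HNRNPU and HNRNPA1 and that of HNRNPC and PTBP1 changed between them. So did that of HNRNPH1 and HNRNPA1, which were at 11.1% and 13.1% in dsRNase replicate 2. By the pattern of shares over the 6 lists, HNRNPA2B1 and HNRNPU were nearest to each other, with a mean absolute difference of 0.12 on the log2 scale. HNRNPM and PTBP1 were nearest to each other at 0.55, and HNRNPA1 and HNRNPK at 0.70. HNRNPH1 was nearest to HNRNPA2B1 at 0.16, as was HNRNPC at 0.46. This measure is not corrected for span length.

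Footprints left by ssRNase were longer. The median length of the sites in the 8 genes was 49, 44 and 42 nt in the ssRNase lists and 33, 33 and 35 nt in the dsRNase lists (mean 45.0 ± 3.61 with ssRNase and 33.67 ± 1.15 with dsRNase, in nt with SD and n = 3, exact permutation p = 0.1, two-sided). Medians over all sites of these lists were close to these, at 43, 44 and 42 nt with ssRNase and 33, 33 and 34 nt with dsRNase. By gene the ssRNase medians all exceeded the dsRNase medians in 7 of 8 genes (two-sided exact permutation p = 0.1 each, 0.114 after Benjamini-Hochberg adjustment over the 8 genes). HNRNPM was the exception, where the dsRNase medians rested on 9, 9 and 2 sites. The medians over all sites had the same order, and the count was not made for other genes or windows. The longest sites were in HNRNPH1 with ssRNase, at 337 nt in replicate 1, and in HNRNPA2B1 with dsRNase, at 221 nt in replicate 3.

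The genes were then compared by where along the span, from its 5′ to its 3′ end, protection lay. Over all 8 genes the last 10% of the span held 10.9% ± 1.77 of site bases with ssRNase and 16.6% ± 1.83 with dsRNase (SD, n = 3, two-sided exact permutation p = 0.1). In the first 10% of the span these shares were 10.3% ± 1.51 for ssRNase and 8.37% ± 1.76 for dsRNase (SD, n = 3, exact permutation p = 0.2, two-sided). The sums over the genes rest in good part on HNRNPC. It gave 421, 426 and 426 of the 1114, 1164 and 1344 dsRNase bases in the last 10%. With ssRNase it gave 768, 77 and 488 of 4054, 826 and 2428 bases. The difference without HNRNPC was not tested. The genes did not share one direction. In HNRNPA1, HNRNPC and HNRNPH1 the last 10% held more of the gene's site bases with dsRNase, and in HNRNPK and HNRNPU it held more with ssRNase. In these 5 genes the values of the nucleases did not overlap (two-sided exact permutation p = 0.1 each, 0.16 after Benjamini-Hochberg adjustment over the 8 genes). This measure was not computed for other genes, so whether 5 of 8 is more than elsewhere cannot be said.

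HNRNPC and HNRNPU show the contrast. In HNRNPC the last 10% held 9.5%, 3.1% and 8.1% of the gene's bases with ssRNase and 30.5%, 28.3% and 37.1% with dsRNase. In bases, dsRNase protected 421, 426 and 426 nt there, while ssRNase protected 768, 77 and 488 nt. Only the dsRNase sums were this close, and they were not all made of the same bases. From 57001 to 58000 the dsRNase lists held 130, 65 and 56 bases, and from 58001 to 59000 they held 133, 196 and 218. In HNRNPU the last 10% held 14.5%, 21.4% and 22.4% with ssRNase and 7.1%, 4.8% and 2.0% with dsRNase. The bases from 13001 to 14000 of HNRNPU held 588, 287 and 568 protected bases with ssRNase and 96, 65 and 33 with dsRNase. The first 1000 bases held 590, 229 and 385 with ssRNase and 240, 174 and 313 with dsRNase, and were the stretch of HNRNPU with the greatest summed share. As a share of the list, bases 13001 to 14000 of HNRNPU had nearly the same mean with both nucleases, 75.4 ppm with ssRNase and 74.8 ppm with dsRNase, whereas the first 1000 bases had 61.3 ppm with ssRNase and 287 ppm with dsRNase.

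**Figure D2:**
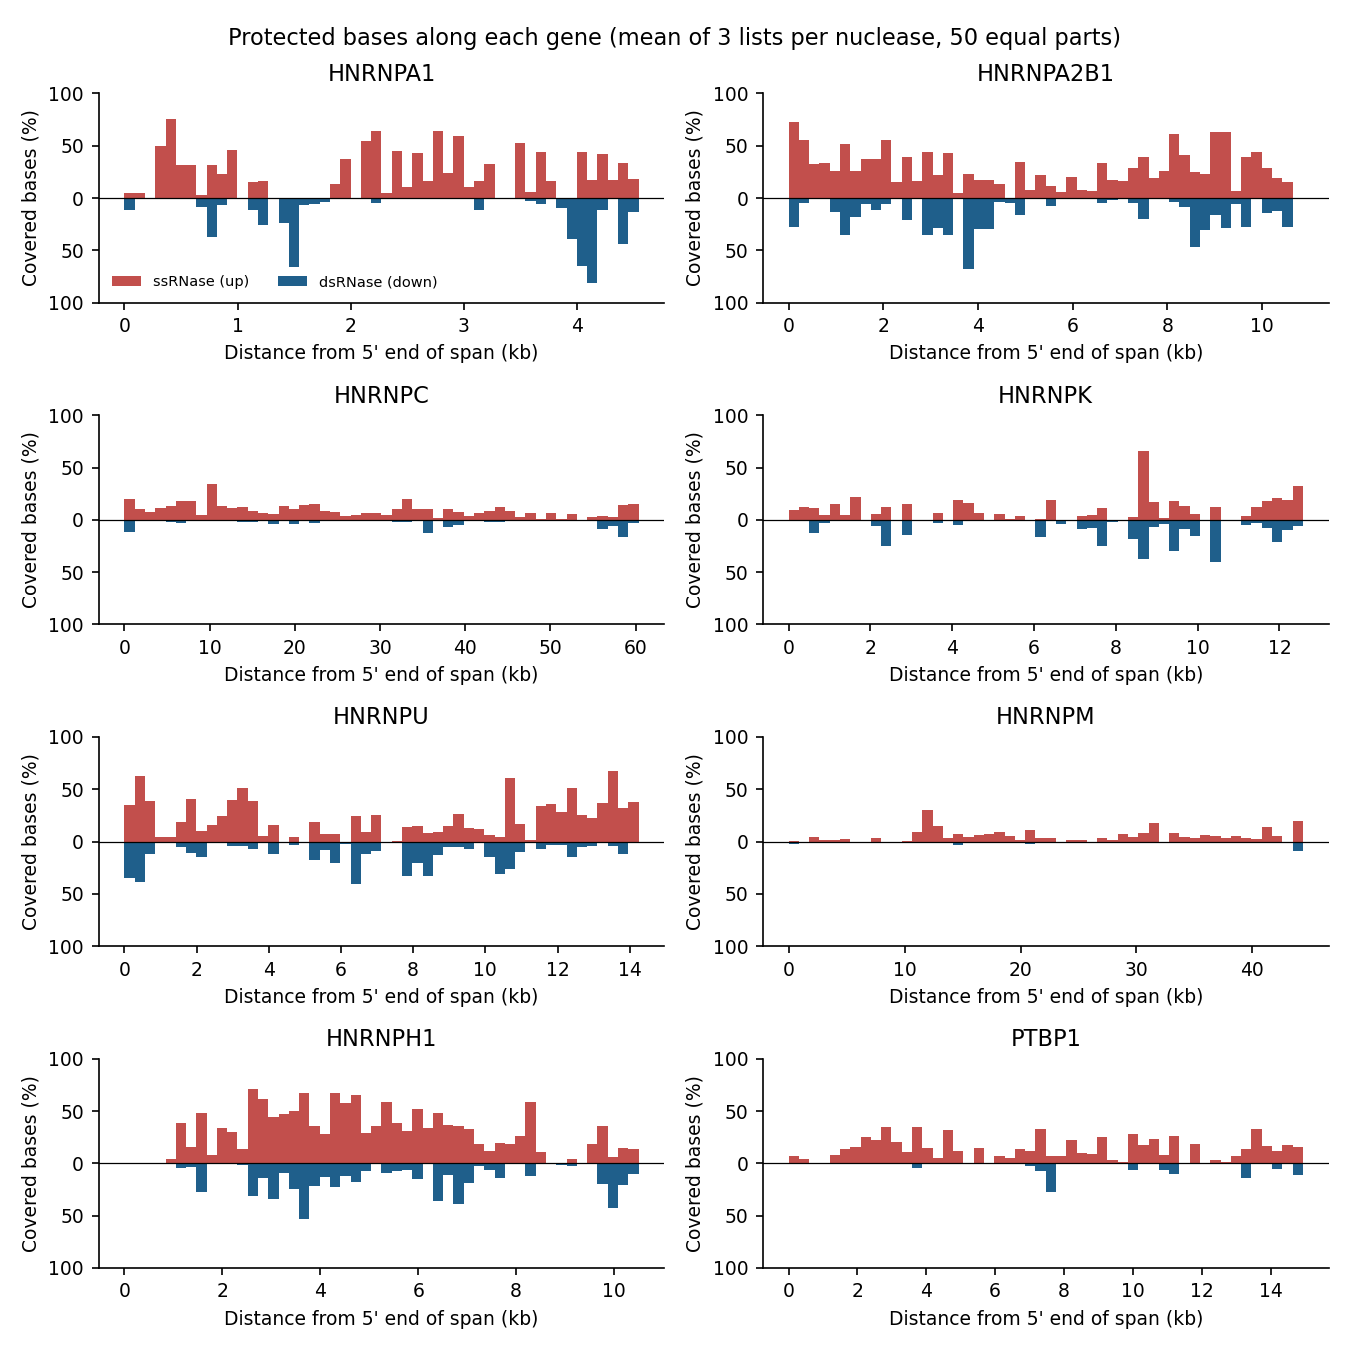
Share of bases covered by sites along each gene, in 50 equal parts from the 5′ end, as the mean of 3 lists, with ssRNase drawn upward and dsRNase downward. HNRNPH1 is empty at its 5′ end with both nucleases, HNRNPA1 has its tallest dsRNase bar near its 3′ end, and HNRNPC and HNRNPM are low along most of their length.

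Other genes had marked places of their own. In HNRNPA1 the bases from 2001 to 3000 held 569, 77 and 433 protected bases with ssRNase and 12, 0 and 0 with dsRNase, while the last stretch, from 4001 to 4543, held 309, 0 and 161 with ssRNase and 154, 172 and 238 with dsRNase. In HNRNPA2B1 the first 1000 bases held 512, 361 and 504 protected bases with ssRNase and 62, 35 and 114 with dsRNase. From base 3001 to 4000 of HNRNPA2B1 the protected bases numbered 544, 57 and 143 with ssRNase and 362, 315 and 378 with dsRNase. The stretch at the 5′ end of HNRNPA2B1 was thus its leading one with ssRNase, and the stretch from 3001 to 4000 with dsRNase. In HNRNPK the stretch from 8001 to 9000 led with both nucleases, at 282, 161 and 206 bases with ssRNase and 170, 133 and 172 with dsRNase. HNRNPH1 held no site base in its first 10% in any of the 6 lists. Its stretch from 3001 to 4000 held 821, 377 and 339 bases with ssRNase and 268, 304 and 329 with dsRNase, and led with both. In HNRNPM the last 348 bases, from 44001 to 44348, held 252, 67 and 107 bases with ssRNase and 46, 71 and 119 with dsRNase. In dsRNase replicate 3 these 119 bases were all that was protected in HNRNPM. In PTBP1 the stretch from 2001 to 3000 held 436, 152 and 286 bases with ssRNase and 3, 0 and 0 with dsRNase. From 7001 to 8000 PTBP1 held 246, 36 and 237 with ssRNase and 110, 136 and 94 with dsRNase.

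The windows of 10000 bp resolve the long genes further. Of the 18 windows centred in a gene span 10 passed limma's adjusted p of 0.05, 9 with a greater dsRNase share and 1 with a greater ssRNase share. Of all windows 7.04% passed with a greater dsRNase share and 26.6% with a greater ssRNase share. Among the 165 windows with a mean share at least that of the lowest gene, 65.5% passed with a greater dsRNase share. The 18 windows are not a like set, since those of HNRNPC, HNRNPM and PTBP1 had mean shares below that of the lowest gene. The PTBP1 window, for example, had 197 ppm with ssRNase and 215 ppm with dsRNase. HNRNPM, the lowest gene, had 299 and 274 ppm over its whole span. The count of 9 among 18 was therefore not compared with that rate. The 9 were the only window of HNRNPA1, of HNRNPA2B1 and of HNRNPH1, both windows of HNRNPK and of HNRNPU, and 2 windows of HNRNPC. The window with the greater ssRNase share was chr19:8540001-8550000 in HNRNPM, with 109, 54.9 and 69.0 ppm in the ssRNase lists and 0, 30.6 and 0 in the dsRNase lists (log2 difference 1.80 ± 0.44, SE, limma adjusted p = 0.0267). HNRNPC holds the centres of 6 windows, of which chr14:21690001-21700000 (adjusted p = 0.0146) and chr14:21730001-21740000 (adjusted p = 0.0491) passed. From the 5′ toward the 3′ end of HNRNPC the dsRNase share was 1.62, 0.747, 0.954, 1.86, 2.57 and 6.03 times the ssRNase share in these windows. The last of them, chr14:21680001-21690000, missed the threshold (adjusted p = 0.0584) and rested on dsRNase replicate 1, with 65.5, 0 and 42.0 ppm in the ssRNase lists and 392, 130 and 126 ppm in the dsRNase lists. Without that list its ratio was 3.57. The 3′ end of HNRNPC reaches into a further window, chr14:21670001-21680000, centred outside the span, where the ratio was 2.52 (adjusted p = 0.0184).

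Protection in these genes recurred more between lists than protection at large. Of the sites of the 8 genes, 62.3%, 94.7% and 80.3% in the ssRNase lists and 70.6%, 73.5% and 70.0% in the dsRNase lists overlapped a site of another list of the same nuclease by at least 1 nt. The same shares over all sites were 52.8%, 89.9% and 62.2% with ssRNase and 51.4%, 47.9% and 54.9% with dsRNase. The genes' share was the higher in all 6 lists. Overlap with a list of the other nuclease was found for 40.1%, 44.9% and 36.8% of the genes' ssRNase sites, against 15.1%, 23.2% and 15.4% of all ssRNase sites. For dsRNase sites it was 82.4%, 82.1% and 85.6% in the genes, against 73.9%, 75.5% and 76.6% overall. These shares rise with the number of bases the other lists hold at a place, and the genes are densely covered, so their part in the difference was not tested. Within its list the median site of the 8 genes stood at percentile 67.7, 55.8 and 55.4 of the authors' score with ssRNase and 66.4, 69.2 and 60.6 with dsRNase.

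The authors' merged list over both nucleases held 675 sites in the 8 genes, of 293016 in all. Sites of both nucleases were joined in 31.1% of the genes' merged sites and in 12.01% of the whole list, which includes the genes. All 6 lists were joined in 27 sites of the genes, or 4.0%, against 0.696% of the whole list. At least 4 lists were joined in 127 sites, or 18.8%, against 5.65% of the whole list. These sites were uneven between genes. HNRNPA2B1 held 8 of the 27, HNRNPH1 held 7, HNRNPU held 6 and HNRNPC held 3. HNRNPK, HNRNPM and PTBP1 held 1 each, and HNRNPA1 none of its 34 merged sites.

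**Figure D3:**
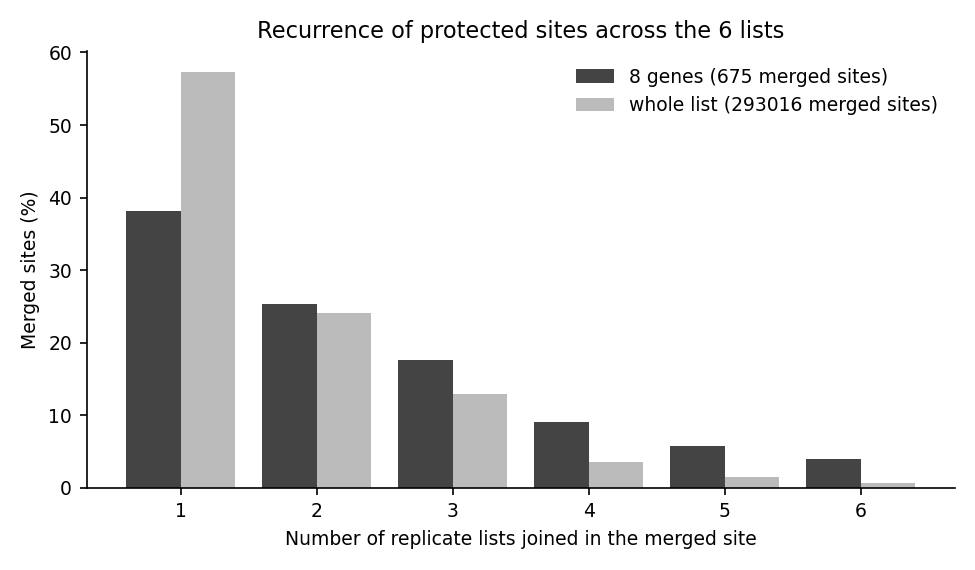
Share of merged sites by the number of replicate lists they join, for the 675 merged sites of the 8 genes (dark) and the 293016 of the whole list (light). Sites from 1 list make up 38.2% in the genes and 57.4% in the whole list, and the dark bar is the taller from 2 lists upward.

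The longest site joining all 6 lists was in HNRNPH1 at chr5:179046864-179047227 on the minus strand (hg19). Of its 364 nt, 337, 212 and 194 were protected in the ssRNase lists and 63, 51 and 71 in the dsRNase lists. A merged site is the union of its parts, so not every base was protected in each list. Further sites of this kind in HNRNPH1 lay at chr5:179048743-179049101 (359 nt), chr5:179047764-179048108 (345 nt) and chr5:179047243-179047571 (329 nt). The HNRNPH1 site of 345 nt joined 22 replicate sites and held the most dsRNase protection of the set, with 328, 108 and 208 bases in ssRNase lists and 155, 137 and 180 in dsRNase lists. In all, 6 such sites stood within 2238 bp of HNRNPH1, from 179046864 to 179049101, and covered 72.1% of that stretch. Another lay at chr5:179050004-179050165 (162 nt).

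In HNRNPA2B1 the longest was chr7:26240022-26240374 (353 nt, minus strand), from base 40 to base 392 of the gene. It held 326, 234 and 274 protected bases with ssRNase and 62, 35 and 114 with dsRNase. The others among the 15 longest were at chr7:26238350-26238584 (235 nt), chr7:26231338-26231544 (207 nt), chr7:26230559-26230763 (205 nt), chr7:26236917-26237107 (191 nt) and chr7:26231153-26231336 (184 nt). They thus lay toward both ends of HNRNPA2B1. In HNRNPU a site near the 5′ end, chr1:245027363-245027601 (239 nt, minus strand, bases 244 to 482), was protected about evenly, with 216, 145 and 171 bases in ssRNase lists and 175, 85 and 189 in dsRNase lists. A further HNRNPU site lay at chr1:245017037-245017195 (159 nt).

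The one such site of HNRNPK, chr9:86586797-86587041 (245 nt, minus strand), joined 18 replicate sites, with 244, 109 and 167 bases in ssRNase lists and 105, 70 and 128 in dsRNase lists. In HNRNPC the longest, chr14:21702118-21702287 (170 nt, minus strand), lay 35352 to 35521 bases from the 5′ end. Here 99, 52 and 37 bases were protected with ssRNase and 82, 162 and 122 with dsRNase, so that the dsRNase lists covered more of it in 2 of 3 cases than any ssRNase list. The single site of PTBP1 lay at chr19:804547-804702 (156 nt, plus strand), with 143, 36 and 136 bases in ssRNase lists and 25, 43 and 5 in dsRNase lists. The single site of HNRNPM lay at the very end of the gene, at chr19:8553642-8553795 (154 nt, plus strand), with 107, 67 and 107 bases in ssRNase lists and 46, 71 and 91 in dsRNase lists. The longest merged site of HNRNPM was another, chr19:8540829-8541028 (200 nt), with 153, 56 and 63 bases in ssRNase lists and 0 in each dsRNase list. The longest of HNRNPA1, chr12:54677190-54677337 (148 nt, plus strand), had 141, 0 and 143 bases in ssRNase lists and 0 in each dsRNase list. No reference of build hg19 was used here, so these sites are not assigned to exons, introns or UTRs.

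Base by base, 23.4% of the summed spans was protected in any ssRNase list and 8.0% in any dsRNase list. Of the 13786 dsRNase-protected bases, 9774 (70.9%) were also protected in an ssRNase list. This share exceeded the ssRNase coverage of the span in 7 genes. That coverage is taken over the whole span, introns included, and the comparison was not made outside the genes. In HNRNPH1 it was 81.9% of dsRNase-protected bases against 51.5% of the span, in HNRNPA2B1 79.8% against 49.5% and in HNRNPC 75.0% against 18.0%. In HNRNPK it was 70.0% against 17.8%, in HNRNPU 65.6% against 40.6%, in HNRNPM 62.3% against 10.8% and in PTBP1 46.7% against 25.9%. HNRNPA1 was the exception, at 41.1% against 42.3%, so that dsRNase-protected bases of HNRNPA1 were protected from ssRNase about as often as any base of its span. Only 289 bases were protected in all 6 lists, of which 111 lay in HNRNPU, 59 in HNRNPH1, 39 in HNRNPA2B1, 33 in HNRNPM, 28 in HNRNPC and 19 in HNRNPK. HNRNPA1 and PTBP1 had none.

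**Figure D4:**
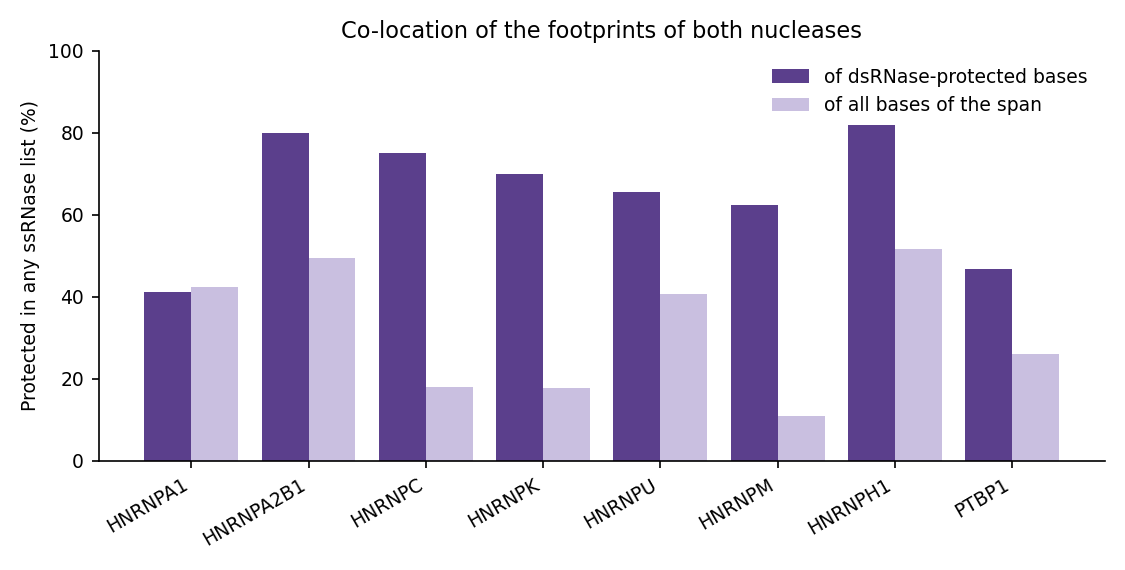
Percentage protected in any ssRNase list, for the dsRNase-protected bases of each gene (dark) and for all bases of its span (light). The dark bar is the taller in every gene but HNRNPA1, where the values are 41.1% and 42.3%.

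The protected length was set beside the length of annotated exons, taken from GENCODE 29 on build GRCh38 as lengths only. In HNRNPC 11524 bases were protected in any list, which exceeds the 7309 bases of all its annotated exons by 4215. ssRNase replicate 1 alone listed 8122 bases in HNRNPC. Part of the protected RNA of HNRNPC therefore lay outside annotated exons, as far as exon lengths are alike in both builds, and its 9 pseudogenes by symbol leave the placement of reads uncertain. In the other genes the protected length was below that of all exons, but exon lengths cover the whole GRCh38 gene, which is longer than the hg19 span used here in several of them (28473 against 10858 bp in HNRNPA2B1). In HNRNPU and HNRNPA1 the exons of all transcripts are longer than the span itself, so the protected length could not exceed them. It exceeded the exons of protein-coding transcripts in HNRNPM (5011 against 2860 bases), HNRNPH1 (5850 against 4559) and PTBP1 (4239 against 3816). In HNRNPA2B1, HNRNPK and HNRNPU it did not, and in HNRNPA1 it could not, as these exons too are longer than the span.

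**Figure D5:**
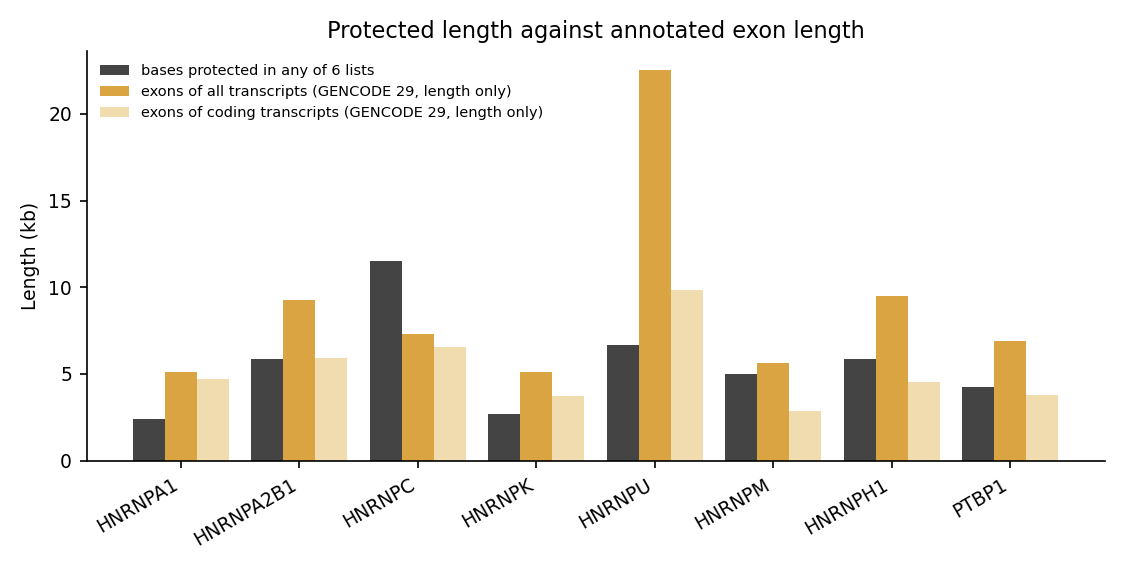
Length in kb protected in any of the 6 lists, beside the summed length of the exons of all transcripts and of coding transcripts, for each gene. In HNRNPC the protected length is above both, and in HNRNPM, HNRNPH1 and PTBP1 it is above the coding-transcript exons.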

How the data were processed

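Cross-linked HEK293T lysates gave 12 libraries. Per the labels' protocols, a duplex-specific nuclease was used to even out the libraries, which lowers the share of abundant sequences. The tools were cutadapt 0.9.5 and TopHat2 2.0.9 and the build was hg19, per the submitters' processing notes. The authors called sites with CSAR, and the names of the deposited lists give an FDR of 5%. For read normalisation and multi-mapped reads, a rule was not given in the sources used here. The deposited score of a site has no stated scale and served for ranks within a list only. Each list compares a footprint with its control, and no separate control values are in these lists.

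Positions were read as 1-based. Shares per 1000000 site bases were compared in limma 3.58.1 (R 4.3.3) on log2(share + 20), over windows of 10000 bp with sites in at least 3 of 6 lists plus the 8 genes, without a block, at an adjusted p of 0.05. Such differences understate changes of low windows. On simulated lists this test made few or no adjusted calls when few windows were changed, so a missing call says little in such a case. In the data 10563 windows were called, which is unlike that setting. A missing call does not show equal shares in either case. Single values were tested by exact permutation over lists (scipy 1.17.1, Python 3.11.15). The members and lists were chosen with earlier results of these data known. Named were all 8 genes, the 15 longest merged sites joining all 6 lists, each gene's longest merged site, the leading stretch of 1000 bp by summed share, passing windows and each gene's nearest pattern. The 6-list site of HNRNPM, the stretches leading with ssRNase, and the HNRNPC windows beyond those that passed were picked after their values were seen. Other hnRNP-pathway genes were not analysed here, as no hg19 annotation was used.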

Additional observations from a re-analysis of the deposited data

How the results depend on the processing

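The summed share of the 8 genes, the share of the last 10% and the median site length kept their direction under every alternative run. No alternative left out a gene. The direction of the sense share could not turn, since this share was 100% in each dsRNase list. Leaving out 1 list at a time gave differences of -0.572 to -0.514 percentage points for the summed share, -6.45 to -4.68 for the last 10%, -0.806 to -0.264 for the sense share and 9.33 to 12.8 nt for the median length. The number of genes with a greater dsRNase share in limma, 6 in the report, was 0 to 6 when 1 list was left out, 4 with median scaling, 3 when equal numbers of sites were drawn from every list and 0 with a replicate block. The number of windows called, 10563, was 45 to 10082 when 1 list was left out, up to 12027 when the windows of the 6-list fit were then kept, 1777 with equal numbers of sites, 6987 with a pseudocount of 100, 0 with a replicate block and 1465 with a mean-variance trend and a mean of at least 50 per 1000000, an alternative chosen after seeing the data. The cause of these changes was not tested. Same-numbered lists had correlations of 0.017, -0.063 and -0.034, and the labels do not state whether they share a culture or batch. The block uses residual degrees of freedom and also changed the SE of the differences. The SE rose in every gene but HNRNPM, for example from 0.20 to 0.28 in HNRNPA2B1, and fell from 0.39 to 0.32 in HNRNPM. Under the block 11366 windows and 6 genes had an unadjusted p below 0.05, with adjusted p of 0.0512 to 0.0751 for these genes.

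The share of gene sites recurring within a nuclease was 79.1% with ssRNase and 71.4% with dsRNase. Without ssRNase replicate 1, 2 or 3 the ssRNase share was lower, at 54.0%, 68.1% and 61.2%. Without dsRNase replicate 1, 2 or 3 the dsRNase share was lower, at 60.4%, 51.9% and 60.8%. Leaving out a list of the other nuclease cannot change this measure. With equal numbers of sites, where the ssRNase lists lose most of their sites, the share was 13.4% with ssRNase and 66.5% with dsRNase. With an overlap of 50% of the site it was 62.2% with dsRNase, and with 50% of both sites 60.6% with ssRNase and 51.7% with dsRNase. Only HNRNPM and PTBP1 changed direction. Without 1 list HNRNPM was -0.15 (without dsRNase replicate 3) to 0.52 and PTBP1 -0.34 to 0.13 (without dsRNase replicate 2), whichever windows were kept. HNRNPM was -0.22 in the better-scoring 50% of each list and -0.42 within strand. PTBP1 was 1.36 in the better-scoring 50% and 0.71 with median scaling. Unknown depth limits all comparisons of site numbers between lists.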
